A study of Mus musculus with 20 samples.

Results

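A set of 10 genes of the IL-1 family and the inflammasome was followed in bone marrow-derived macrophages (BMDMs): the cytokines Il1a, Il1b and Il18, the inhibitors Il1rn, Il18bp and Il1r2, the sensor Nlrp3, the proteases Casp1 and Casp4, and the pore-forming protein Gsdmd. They were taken by gene name from the deposited table and are 10 of its 78409 genes, 34373 of which had a count in at least 1 library. The study asked what the small noncoding RNA RNY1 adds to the effect of airway fluid on macrophages. Wild-type C57BL/6J BMDMs, grown from the bone marrow of female mice and used on culture day 7 at 200000 cells per well, received PBS or 1 of 4 preparations of bronchoalveolar lavage fluid (BALF), with 4 libraries in each of the 5 groups. The BALF came from mice with ovalbumin airway inflammation that either carried RNY1 (RNY1+/+) or had both alleles deleted by CRISPR (RNY1-/-), so the genotype named here is that of the fluid's donor and never of the macrophage; the study's mice were 7 to 16 weeks old. The deletion therefore leaves no mark in these wild-type cells by which the libraries' labels could be checked. The EV-enriched fraction (EVFx, size exclusion fractions 1 to 4) was given at 35000000 particles/µL and the protein-enriched fraction (ProteinFx, fractions 9 to 20) at 0.75 µg/µL protein, after 5 days of storage at 4 °C, in medium without serum. The fractions were matched between genotypes and not between each other. Neither the labels nor the methods say if a group's 4 libraries stand for different mice, fluid pools or wells, so the p-values measure the spread between these libraries, which may be technical. Per the methods, the RNY1-/- mice came from GemPharmatech and all other mice were C57BL/6J from JAX. Donor genotype therefore cannot be told apart from mouse source or, with the unit of replication unknown, from fluid preparation.

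IL-1α and IL-1β are ligands of the same receptor, IL1R1, which signals with its partner IL1RAP through MYD88. IL-1α is active as the full-length precursor, whereas IL-1β and IL-18 need cleavage, in the classical route by caspase-1 inside an inflammasome built from a sensor such as NLRP3 and the adaptor ASC, encoded by Pycard. Caspase-11, the product of mouse Casp4, binds cytosolic lipopolysaccharide, and both caspases cleave gasdermin D, the pore former of pyroptosis. In macrophages transcription of Il1b and Nlrp3 is the priming step that precedes assembly. These libraries measured transcripts only; cleavage, secretion and pore formation were not measured.

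Library totals ran from 2510005 to 8277366 counts, with a median of 5456425, so that 3 counts, taken as the floor of detection, equalled 0.362 to 1.2 CPM (counts scaled to the same library total) depending on the library. All 6 macrophage markers listed were above the floor in every group, with summed levels of 8334 to 12711 CPM. Neutrophil markers summed to 328 to 364 CPM in PBS, 156 to 221 and 198 to 279 CPM after RNY1+/+ and RNY1-/- EVFx, and 230 to 349 and 272 to 402 CPM after RNY1+/+ and RNY1-/- ProteinFx, while the defining neutrophil gene Ly6g and the eosinophil gene Epx were at or near 0 throughout. By group mean the neutrophil sum was highest in PBS and RNY1-/- ProteinFx, where Il1a and Il1b were lowest. The ranges of both groups overlapped that of RNY1+/+ ProteinFx. Most of the neutrophil sum came from S100a8 and S100a9, and its part in the results was not tested. Marker sums did not exceed 2.83 CPM for eosinophils, mast cells, B cells and dendritic cells, 9.02 CPM for T cells, 19.5 CPM for airway epithelium and 26.2 CPM for fibroblasts. Several libraries stood apart from their group. Replicate 3 of PBS did so over all genes, and replicate 4 of RNY1+/+ ProteinFx for Il1a and Il1b and not over all genes. In RNY1-/- ProteinFx, replicates 1 and 2 resembled each other more than they resembled replicates 3 and 4. Where a call or the size of a difference in the followed set rests on these libraries, the value without them is given beside it. The other pathway genes described below have values from all libraries of a comparison only. Whether those values rest on single libraries was not tested. In a bulk library, more cells of a type and more RNA per cell cannot be told apart.

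To place the genes on the genome, the bases just before their transcription start sites were read from RefSeq (build GRCm38.p6, an older build than the GRCm39 to which the reads were aligned), where 9 of the 10 genes had an entry. Stretches of 150 bases are shown for the 2 IL-1 agonists, their antagonist and the caspase with the widest separation from PBS. Capitals mark matches, on either strand, to the NF-kB letters GGGNNTTNCC, the AP-1 letters TGANTCA or the TATA letters TATAAA.
Il1a, chr2:129309973-129310122, minus strand: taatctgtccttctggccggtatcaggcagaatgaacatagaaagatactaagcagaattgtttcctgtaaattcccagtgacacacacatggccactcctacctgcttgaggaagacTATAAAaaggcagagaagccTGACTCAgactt
Il1b, chr2:129371140-129371289, minus strand: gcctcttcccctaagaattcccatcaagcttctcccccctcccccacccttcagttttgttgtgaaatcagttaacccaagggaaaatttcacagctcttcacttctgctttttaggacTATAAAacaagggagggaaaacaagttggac
Il1rn, chr2:24345221-24345370, plus strand, 1 of the gene's start sites: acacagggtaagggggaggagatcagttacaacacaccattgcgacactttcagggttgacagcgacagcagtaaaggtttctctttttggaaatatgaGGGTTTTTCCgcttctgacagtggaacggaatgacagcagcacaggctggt
Casp4, chr9:5308699-5308848, plus strand, 1 of the gene's start sites: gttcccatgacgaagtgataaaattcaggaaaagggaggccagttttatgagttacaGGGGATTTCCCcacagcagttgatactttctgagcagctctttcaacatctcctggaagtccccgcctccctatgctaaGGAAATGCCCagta
Il1a and Il1b lie near each other on chromosome 2 and read from the same strand, and both have a TATA match whose first base is 32 and 31 bases before the start. An AP-1 match follows in Il1a at -12. The Il1rn start shown has an NF-kB match at -51. In Casp4, 2 overlapping NF-kB matches begin at -93 and -92 and a reverse-strand match at -14. Across 32851 RefSeq promoters of 300 bases (250 before and 50 after the start), 4.79% held the NF-kB letters, 7.81% the AP-1 letters and 13.6% the TATA letters. The interferon-response letters TTTCNNTTTC were in 3.44% of promoters and in none of the listed windows of these genes, and the C/EBP letters TTGCNNAA were in 10.8% and in the Il18bp window, at -49. These are matches of letters in a fixed window.

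Every airway fraction raised the IL-1 agonists, their antagonist and the caspases, and Il1b showed the widest range of all the genes followed. Il1b stood at 0, 0.463, 0.915 and 0.534 CPM in the 4 PBS libraries, from 0, 3, 4 and 3 counts. After RNY1+/+ EVFx it was at 41.4, 48.8, 51.3 and 57.1 CPM, and after RNY1-/- EVFx at 14.1, 19.2, 21.2 and 28.3 CPM. With ProteinFx it reached 18.4, 28.9, 24.1 and 87.1 CPM for RNY1+/+ and 7.75, 7.41, 3.59 and 5.71 CPM for RNY1-/-. Every treated library was thus above every PBS library, and the RNY1-/- ProteinFx libraries were below all the other treated ones. Because PBS held only 10 counts of Il1b in all, the size of the rise is best read from pooled counts: 106-fold (95% interval 57.4 to 221, counting error only) for RNY1+/+ EVFx, 43.0-fold (23.2 to 90.2) for RNY1-/- EVFx, 91.2-fold (49.3 to 191) for RNY1+/+ ProteinFx and 14.2-fold (7.46 to 30.3) for RNY1-/- ProteinFx. The RNY1+/+ ProteinFx value leans on replicate 4, which was 3.66 times the mean of the other 3 libraries (23.8 ± 5.27 CPM, SD, n = 3).

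Il1a, the agonist that needs no cleavage, was detected without any airway fluid. Its PBS libraries held 8.20, 8.96, 5.49 and 5.34 CPM. It was at 89.1, 96.0, 107 and 87.1 CPM after RNY1+/+ EVFx, and at 61.5, 53.3, 66.5 and 73.7 CPM after RNY1-/- EVFx. ProteinFx gave 89.4, 106, 76.9 and 285 CPM for RNY1+/+ and 42.1, 30.2, 41.8 and 30.3 CPM for RNY1-/-. From low to high the group means ran PBS, RNY1-/- ProteinFx (36.1 ± 6.76 CPM), RNY1-/- EVFx (63.8 ± 8.57 CPM), RNY1+/+ EVFx (94.9 ± 9.13 CPM) and RNY1+/+ ProteinFx (139.5 ± 98.0 CPM; SD, n = 4 each), and only the top 2 groups overlapped. Without replicate 4, which was 3.14 times the mean of the others, RNY1+/+ ProteinFx stood at 90.9 ± 14.8 CPM, level with RNY1+/+ EVFx.

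Il1rn encodes the receptor antagonist that binds IL1R1 without signalling, and its order over the groups was different from that of the agonists. PBS libraries were at 56.6, 45.6, 36.5 and 43.8 CPM. After EVFx it was at 149.9, 129, 105 and 133 CPM for RNY1+/+ and 91.5, 88.4, 51.2 and 73.7 CPM for RNY1-/-. After ProteinFx it was at 414, 418, 534 and 739 CPM for RNY1+/+ and 192, 212, 199.6 and 173 CPM for RNY1-/-. Both ProteinFx groups lay above both EVFx groups in every library, RNY1+/+ lay above RNY1-/- within each fraction, and only RNY1-/- EVFx overlapped PBS.

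Among the IL-18 genes, the binding protein varied more than the cytokine. Il18 means were 20.8 ± 3.87 CPM in PBS, 35.8 ± 7.18 and 35.8 ± 8.98 CPM after RNY1+/+ and RNY1-/- EVFx, and 34.5 ± 6.73 and 27.3 ± 6.10 CPM after RNY1+/+ and RNY1-/- ProteinFx (SD, n = 4). Ordered by mean, from PBS through RNY1-/- ProteinFx, RNY1+/+ ProteinFx and RNY1-/- EVFx to RNY1+/+ EVFx, each group overlapped the next, and only RNY1-/- ProteinFx overlapped PBS. Il18bp encodes a secreted decoy that captures IL-18; its libraries were at 29.5, 24.3, 13.3 and 23.3 CPM in PBS, 51.7, 43.2, 35.8 and 45.5 CPM after RNY1+/+ EVFx and 42.9, 44.8, 24.1 and 28.3 CPM after RNY1-/- EVFx. It was highest after ProteinFx, at 74.8, 68.2, 74.1 and 63.0 CPM for RNY1+/+ and 103, 108, 63.7 and 67.4 CPM for RNY1-/-. No ProteinFx library overlapped an EVFx or a PBS library for Il18bp. The 2 higher values of RNY1-/- ProteinFx are those of replicates 1 and 2.

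The cytosolic machinery split into genes with a narrow spread and a clear step from PBS, and Nlrp3, with a small one. Casp4 was at 24.7, 25.3, 29.5 and 29.5 CPM in PBS and at 138, 137, 137 and 122 CPM after RNY1+/+ EVFx. It was at 160, 152, 131 and 161 CPM after RNY1-/- EVFx, at 171, 186, 136 and 170 CPM after RNY1+/+ ProteinFx and at 121, 114, 175 and 156 CPM after RNY1-/- ProteinFx. All 4 treated groups overlapped their neighbours and none came near PBS. Casp1 went from 184 ± 29.0 CPM in PBS to 371 ± 17.2 and 448 ± 26.3 CPM after RNY1+/+ and RNY1-/- EVFx and 436 ± 21.9 and 368 ± 42.4 CPM after RNY1+/+ and RNY1-/- ProteinFx. Gsdmd was at 22.0 ± 3.94 CPM in PBS and between 41.4 ± 5.83 CPM (RNY1-/- EVFx) and 50.7 ± 5.26 CPM (RNY1+/+ EVFx) in the treated groups, each of which overlapped the next in order of mean. Nlrp3 was at 16.6, 16.8, 12.1 and 16.5 CPM in PBS, 23.8, 22.9, 30.4 and 30.0 CPM after RNY1+/+ EVFx and 19.04, 18.2, 20.4 and 18.3 CPM after RNY1-/- EVFx. After ProteinFx it was at 20.9, 23.6, 16.6 and 31.4 CPM for RNY1+/+ and 22.5, 19.02, 17.1 and 17.1 CPM for RNY1-/-. The sensor therefore stayed within a small multiple of its PBS level in every library.

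Il1r2 encodes the decoy receptor for IL-1. It had 0 counts in every PBS library and 0 to 2 counts in any other, with group sums of 1, 1, 2 and 3 in the order RNY1+/+ EVFx, RNY1-/- EVFx, RNY1+/+ ProteinFx and RNY1-/- ProteinFx. It was under the floor of 3 counts in each library and was not tested; a difference was not detectable at this depth.

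**Figure D1:**
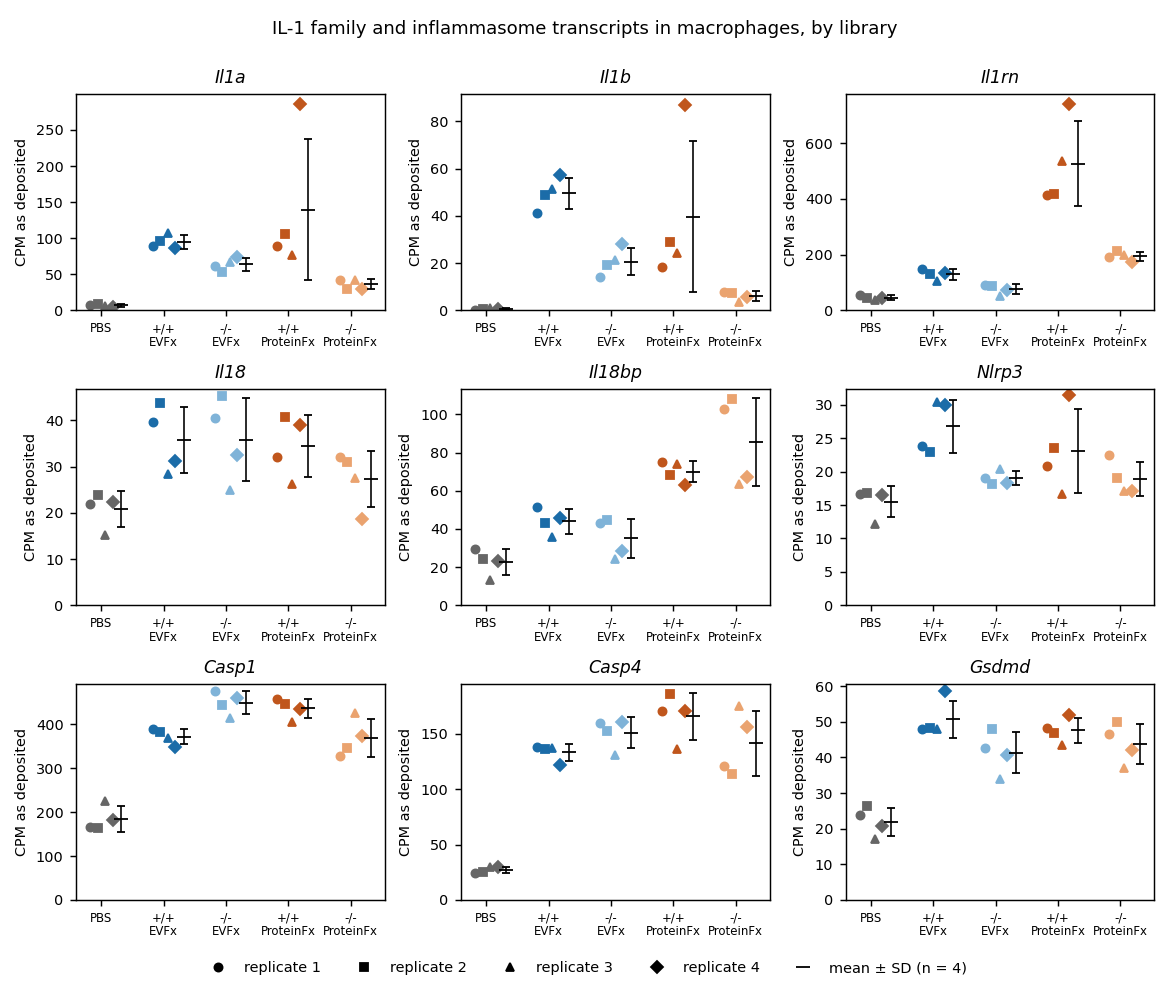
Level of 9 of the genes in each of the 20 libraries (vertical axis, deposited CPM, linear from 0; one panel per gene with its own scale), by group along the horizontal axis; markers show the replicate number and bars the mean ± SD (n = 4). RNY1+/+ ProteinFx replicate 4 lies far above its group for Il1a (285 CPM) and Il1b (87.1 CPM), Il1rn is highest in RNY1+/+ ProteinFx, and Casp4 steps from 24.7 to 29.5 CPM in PBS to 114 CPM or more in every treated library.

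Differences from PBS were tested with edgeR's quasi-likelihood test over all genes with Benjamini-Hochberg adjustment; a gene passed at an adjusted p under 0.05 and was called a differentially expressed gene (DEG) when its log2 fold change was also above 1 in size. The 4 comparisons share the same PBS libraries, so each is given on its own values. After RNY1+/+ EVFx all 9 tested genes passed as higher and 7 were DEGs, where 8.24% of all 10802 genes tested were DEGs in that direction, 21.7% passed as higher and 22.8% as lower. RNY1-/- EVFx gave 9 higher and 6 DEGs, against 9.02% DEGs, 27.6% higher and 30.7% lower among 10733 genes. RNY1+/+ ProteinFx gave 9 higher and 7 DEGs, against 8.96%, 25.9% and 29.3% of 10843 genes. RNY1-/- ProteinFx gave 7 higher, all of them DEGs, against 6.32%, 16.8% and 18.9% of 10862 genes. None passed as lower in any of the 4. Il1b was under the filter of 3 CPM in PBS and entered each of these tests through the treated group, so it had to differ; the other 8 gave 8, 8, 8 and 6 that passed and 6, 5, 6 and 6 DEGs in that order, with a median log2 fold change of 1.29, 1.09, 1.60 and 1.53, beside a median of -0.03 over all genes tested in each. Groups did not overlap for 9, 7, 8 and 8 of the 9 genes, where 43.5%, 52.3%, 46.8% and 30.9% of all genes tested did not. Il1b, which had to differ, is counted in each of these numbers for the 9 genes. With replicates 1 and 2 only, or replicates 3 and 4 only, standing for RNY1-/- ProteinFx, 5 genes were DEGs there in place of 7: Il1b was not tested, and Casp1 (0.90) or Gsdmd (0.98) came under the fold limit while still passing. Among all genes tested, 557 of 10942 were higher DEGs with the first pair and 951 of 10954 with the second.

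Il1b moved most in all 4 comparisons and Il1a came next, except after RNY1-/- ProteinFx, where Casp4 was level with it. Il1b rose by a log2 fold change of 6.84 (SE 0.30, adjusted p = 3.42e-08) after RNY1+/+ EVFx, 5.63 (SE 0.42, adjusted p = 1.07e-06) after RNY1-/- EVFx, 6.52 (SE 0.72, adjusted p = 2.18e-05) after RNY1+/+ ProteinFx and 3.75 (SE 0.45, adjusted p = 0.000163) after RNY1-/- ProteinFx. The corresponding rises of Il1a were 3.92 (SE 0.17, adjusted p = 3.31e-08), 3.41 (SE 0.19, adjusted p = 1.42e-07), 4.49 (SE 0.45, adjusted p = 1.04e-05) and 2.41 (SE 0.22, adjusted p = 2e-05). Without RNY1+/+ ProteinFx replicate 4 the third of these values was 5.74 for Il1b and 3.84 for Il1a. Il1rn rose by 1.68 (SE 0.15, adjusted p = 5.65e-06) and 0.98 (SE 0.19, adjusted p = 0.00108) after the EVFx pair, and by 3.70 (SE 0.22, adjusted p = 1.35e-07) and 2.15 (SE 0.15, adjusted p = 2.31e-06) after the ProteinFx pair, RNY1+/+ first in each. The antagonist thus rose more after either ProteinFx than after either EVFx, an order that neither agonist followed.

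The caspases and Gsdmd rose in all 4 comparisons. Casp4 rose by 2.47, 2.71, 2.77 and 2.45 on the log2 scale (SE 0.11 to 0.18) after RNY1+/+ EVFx, RNY1-/- EVFx, RNY1+/+ ProteinFx and RNY1-/- ProteinFx, with adjusted p of 3.75e-08, 3.68e-08, 1.79e-08 and 4.73e-06. Casp1 rose by 1.19, 1.53, 1.41 and 1.08 in the same order, with SE of 0.12 to 0.15 and adjusted p of at most 0.000373. Gsdmd rose by 1.38, 1.15, 1.28 and 1.06, with SE of 0.14 to 0.16 and adjusted p of at most 0.000641. Il18bp rose by 1.14, 0.88, 1.79 and 1.98 (SE 0.19 to 0.25), with adjusted p of 0.000996, 0.0103, 1.75e-05 and 0.00019. Nlrp3 changed least in all 4, followed by Il18 except after RNY1-/- EVFx, where Il18bp and Il1rn lay between them. Il18 rose by 0.96, 1.02 and 0.90 (adjusted p = 0.00117, 0.00104 and 0.00166) in the first 3 comparisons and differed by 0.46 (SE 0.19, adjusted p = 0.0861) in the last, where it did not pass. Nlrp3 rose by 0.95, 0.52 and 0.75 (adjusted p = 0.000445, 0.0078 and 0.00931) and differed by 0.35 (SE 0.16, adjusted p = 0.104) in the last. Scaling to library totals in place of TMM shifted the log2 fold changes against PBS by -0.18, -0.24, -0.17 and -0.06 in that order; the DEG counts became 6 after RNY1+/+ EVFx, where Il18bp dropped to 0.96, and 4 after RNY1-/- EVFx, where Gsdmd and Il18 came under the fold limit and Nlrp3 (0.28) no longer passed. The correlation of these fold changes with GC content over genes was -0.09, -0.42, -0.46 and -0.50, and with the trends removed 7, 5, 7 and 6 of the genes were DEGs.

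Some DEG calls lay so near the fold limit that 1 library decided them. Without PBS replicate 3, Il18bp after RNY1+/+ EVFx was at 0.96, Il18 after RNY1-/- EVFx at 0.93 and Gsdmd after RNY1-/- ProteinFx at 0.96 on the log2 scale. Il18 after RNY1-/- EVFx was also at 0.97 and 0.92 without replicate 1 or 2 of that group, and Casp1 after RNY1-/- ProteinFx at 0.99 without its replicate 3. In the other direction, values reached 1.00 to 1.05 for Il18 after RNY1+/+ EVFx without PBS replicate 2 or 4 or its own replicate 3 or 4, 1.01 and 1.03 for Nlrp3 there without its replicate 1 or 2, and 1.02 for Il18 after RNY1+/+ ProteinFx without its replicate 3. Il18 passed after RNY1-/- ProteinFx, at 0.59, without replicate 4 of that group. After RNY1-/- EVFx, Il1rn (1.12 and 1.14) and Il18bp (1.04 and 1.02) passed the limit without PBS replicate 1 or without replicate 3 of that group. Il1b after RNY1-/- ProteinFx was tested at a mean of 3.30 CPM over the 8 libraries, close to the filter of 3 CPM, which it met through the treated group; without replicate 1, 2 or 4 of that group it was under the filter and not tested. Apart from Il18 after RNY1-/- ProteinFx, each of these differences passed in every such fit in which it was tested.

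**Figure D2:**
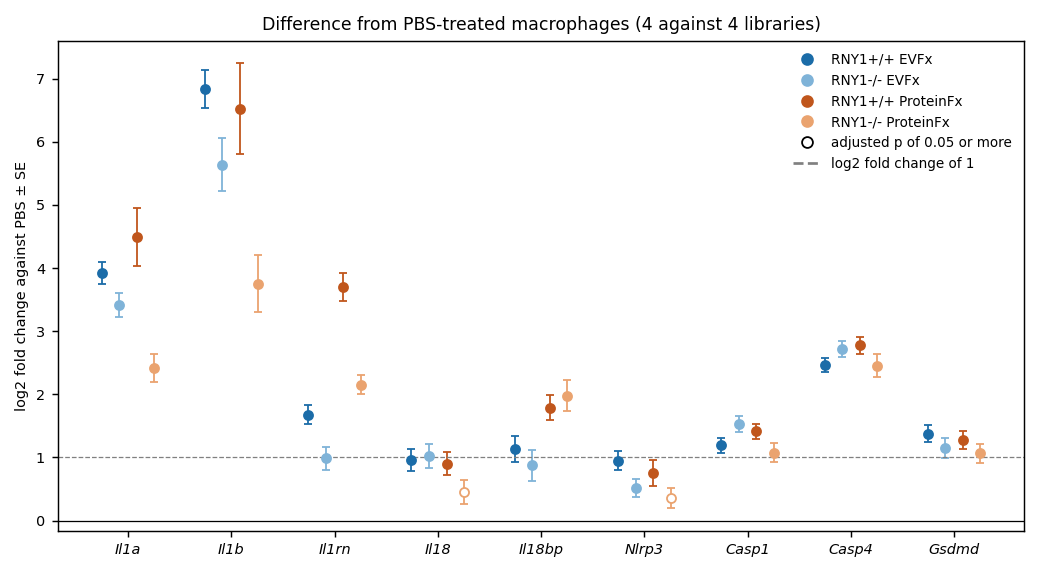
Log2 fold change against PBS (vertical axis, ± SE, 4 against 4 libraries, TMM-scaled counts) of 9 genes along the horizontal axis, one point per treatment; open points had an adjusted p of 0.05 or more and the dashed line is a log2 fold change of 1. Il1b reaches 6.84 after RNY1+/+ EVFx and 3.75 after RNY1-/- ProteinFx, Casp4 lies between 2.45 and 2.77 in all 4, and the 2 open points are Il18 and Nlrp3 after RNY1-/- ProteinFx.

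Fluid from RNY1-/- and RNY1+/+ donors was compared within each fraction. In EVFx, Il1b, Il1rn, Il1a and Nlrp3 were lower with fluid from RNY1-/- than from RNY1+/+ mice, and Casp1 and Casp4 were slightly higher; Il1b alone was a DEG. Il1b fell by 1.21 on the log2 scale (SE 0.17, adjusted p = 0.000282), from 49.6 ± 6.54 to 20.7 ± 5.88 CPM, and the groups did not overlap, as they did not for 5 of the 9 genes and 44.7% of all genes tested. The values of the other 3 that fell were -0.68 for Il1rn (SE 0.15, adjusted p = 0.00263), -0.50 for Il1a (SE 0.11, adjusted p = 0.00256) and -0.42 for Nlrp3 (SE 0.12, adjusted p = 0.00907). Casp1 was higher by 0.34 (SE 0.07, adjusted p = 0.002) and Casp4 by 0.25 (SE 0.08, adjusted p = 0.0231). The Casp4 call was lost without RNY1+/+ EVFx replicate 4 (0.19) or RNY1-/- EVFx replicate 1 (0.23) or 4 (0.19). Gsdmd differed by -0.22 (adjusted p = 0.0969), Il18bp by -0.25 (adjusted p = 0.227) and Il18 by 0.08 (adjusted p = 0.694), and none of these passed, except Gsdmd at -0.28 without RNY1-/- EVFx replicate 2. The 6 that passed, 2 higher and 4 lower, are read against a table in which 25.5% of the 10324 genes tested passed as higher, 26.6% as lower and 2.33% were DEGs. The median of the 9 genes was -0.25 and that of all genes 0.00.

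Across all genes tested the EVFx genotype difference ran with the GC content of the transcript, with a Spearman correlation over genes of -0.65, and these genes span 38.1% GC (Casp4) to 54.4% (Gsdmd). With smooth GC and length trends removed within each library before the fit, Il1b was at -1.29, Il1rn at -0.92 and Il1a at -0.75 and each still passed. Nlrp3 was then at -0.27 (adjusted p = 0.0794), Casp1 at 0.08 (adjusted p = 0.416) and Casp4 at -0.092 (adjusted p = 0.386), so that the calls on these 3 were lost and Casp4 changed sign. The fall of the IL-1 ligands and antagonist was as large without the trend, whereas the differences of the sensor and the caspases were not.

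In ProteinFx Il1a, Il1b and Il1rn passed between genotypes as well, and no other of the 9 did in the fit of all 8 libraries. With RNY1-/- fluid the log2 fold change was -2.74 for Il1b (SE 0.47, adjusted p = 0.00481), -2.07 for Il1a (SE 0.37, adjusted p = 0.00584) and -1.53 for Il1rn (SE 0.18, adjusted p = 0.000352), all 3 DEGs, where 1.82% of the 10480 genes tested were DEGs, 2.19% passed as higher and 3.36% as lower. Every RNY1-/- library lay below every RNY1+/+ library for each of them, and 14.2% of all genes tested did not overlap between these groups. Leaving out replicate 4 of RNY1+/+ ProteinFx, the values were -1.95, -1.42 and -1.30 in that order and remained DEGs. They were also DEGs when only replicates 1 and 2, or only replicates 3 and 4, stood for RNY1-/- ProteinFx. Among all 10489 genes tested the first of these fits gave 152 higher and 254 lower DEGs. The second gave 59 and 121 among 10404. The correlation of the fold change with GC content over genes was 0.16 here, and with GC and length trends removed the 3 remained DEGs and Casp1 also passed as lower, at -0.31 (adjusted p = 0.0298).

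The other 6 genes did not pass between ProteinFx genotypes: Casp1 differed by -0.33 (adjusted p = 0.141), Casp4 by -0.32 (adjusted p = 0.315), Nlrp3 by -0.38 (adjusted p = 0.296), Il18 by -0.42 (adjusted p = 0.21), Gsdmd by -0.20 (adjusted p = 0.383) and Il18bp by 0.21 (adjusted p = 0.501). The median of the 9 genes was -0.38, beside 0.02 over all genes. The calls on the caspases and Il18bp depended on which RNY1-/- libraries were used: with replicates 1 and 2 only, Casp1 was at -0.51 (adjusted p = 0.00221), Casp4 at -0.64 (adjusted p = 0.00214) and Il18bp at 0.46 (adjusted p = 0.00465), and with replicates 3 and 4 only none of the 6 passed. The first of these fits passed 1363 of all 10489 genes tested as higher and 1540 as lower. The second passed 385 of 10404 as higher and 482 as lower. Without RNY1-/- ProteinFx replicate 3 alone, Casp1 passed at -0.42.

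**Figure D3:**
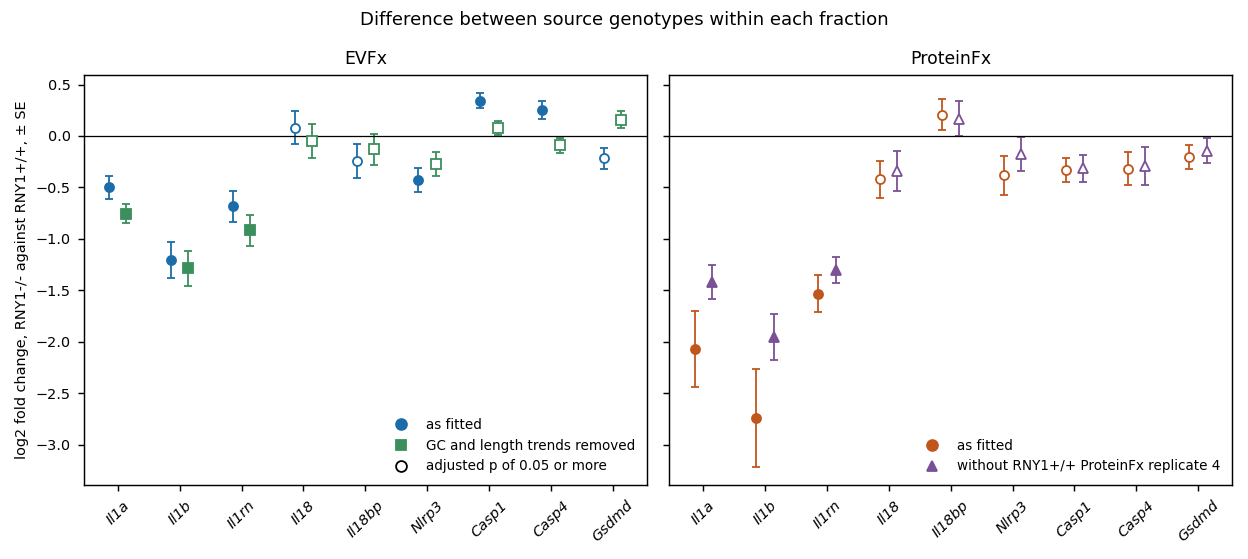
Log2 fold change of RNY1-/- against RNY1+/+ fluid (vertical axis, ± SE, below 0 is lower with RNY1-/-) of 9 genes along the horizontal axis, in EVFx on the left and ProteinFx on the right; circles are the values as fitted, squares have GC and length trends removed, triangles leave out RNY1+/+ ProteinFx replicate 4, and open symbols had an adjusted p of 0.05 or more. Il1a, Il1b and Il1rn stay filled and below 0 in every setting shown, and Casp4 in EVFx goes from 0.25 to -0.092 once the trends are removed.

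The genotype difference itself was compared between fractions with an interaction term over the 16 fraction-treated libraries. It was more negative in ProteinFx for 5 of the 9 genes: Il1a (an interaction of -1.57 on the log2 scale, SE 0.43, adjusted p = 0.0125), Il1b (-1.54, SE 0.56, adjusted p = 0.0429), Il1rn (-0.85, SE 0.25, adjusted p = 0.0192), Casp1 (-0.67, SE 0.14, adjusted p = 0.00383) and Casp4 (-0.57, SE 0.20, adjusted p = 0.0322), while none was more positive. In the table as a whole 16.9% of 10451 genes passed as more positive, 16.1% as more negative and 7.76% were DEGs, and the median was -0.57 over the 9 genes and 0.00 over all. The Il1a and Il1b terms were past the fold limit, and both leaned on 1 library. Without RNY1+/+ ProteinFx replicate 4 the Il1a term was -0.93 and still passed, the Il1b term was -0.75 and did not pass, and no gene of the 9 was a DEG. The Il1b term also failed to pass, at -1.31 to -1.62, without any 1 of the RNY1+/+ EVFx or RNY1-/- ProteinFx libraries or of RNY1-/- EVFx replicates 2, 3 and 4. The Casp4 term, at -0.45 to -0.55 in such fits, failed without replicate 4 of RNY1+/+ EVFx, 1 or 4 of RNY1-/- EVFx, 1, 2 or 4 of RNY1+/+ ProteinFx, or 1 or 2 of RNY1-/- ProteinFx. With replicates 3 and 4 only standing for RNY1-/- ProteinFx, Casp1 alone passed (-0.49, adjusted p = 0.0326), and Il1a (-1.53, adjusted p = 0.0989), Il1rn (-0.85, adjusted p = 0.0986), Il1b (-1.89, adjusted p = 0.184) and Casp4 (-0.28, adjusted p = 0.289) did not. Of all 10406 genes tested in that fit, 121 passed as more positive and 226 as more negative. With replicates 1 and 2 only, Il1b did not pass (-1.36, adjusted p = 0.084), the other 4 did, and Il18bp passed as more positive (0.71, adjusted p = 0.00976). There 2885 of all 10435 genes tested passed as more positive and 2789 as more negative. The interaction also ran with GC, with a correlation of 0.58 over genes; with trends removed, Il1a (-1.26, adjusted p = 0.0365), Casp1 (-0.38, adjusted p = 0.0149) and Gsdmd (-0.39, adjusted p = 0.0488) passed, and Il1b (-1.46, adjusted p = 0.078), Il1rn (-0.55, adjusted p = 0.126) and Casp4 (-0.21, adjusted p = 0.24) did not.

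The 2 fractions of one genotype were then set against each other; they were dosed by particles and by protein, so fraction and dose cannot be told apart. With RNY1+/+ fluid, Il1rn was higher after ProteinFx by 2.03 on the log2 scale (SE 0.17, adjusted p = 1.71e-07) and was the only DEG of the 9. Il18bp was higher by 0.66 (SE 0.10, adjusted p = 7.85e-05), Casp4 by 0.32 (SE 0.10, adjusted p = 0.0104) and Casp1 by 0.23 (SE 0.08, adjusted p = 0.0191). Casp1 did not pass without RNY1+/+ EVFx replicate 4 (0.19) or RNY1+/+ ProteinFx replicate 1 (0.21). The caspase differences of Casp4 and Casp1 became -0.098 and -0.061 with GC and length trends removed and are therefore not firm in direction, and Gsdmd, at -0.09 with the trends kept, then passed as higher (0.30, adjusted p = 0.0111). Here 31% of the 10448 genes passed as higher, 32.2% as lower and 13.4% were DEGs, and the medians were 0.23 for the 9 genes and -0.02 for all. Il1a (0.58, SE 0.31, adjusted p = 0.11) and Il1b (-0.28, SE 0.34, adjusted p = 0.492) did not pass. Without replicate 4 of RNY1+/+ ProteinFx the Il1b value was -1.08, a DEG lower after ProteinFx, the Il1a value was -0.07, and Nlrp3 passed at -0.39. Il1a passed, at 0.79, without replicate 3 of that group.

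With RNY1-/- fluid the antagonists and the agonists went opposite ways. Il1rn was higher after ProteinFx than EVFx by 1.18 (SE 0.15, adjusted p = 9.56e-05) and Il18bp by 1.12 (SE 0.20, adjusted p = 0.0012), both DEGs. Il1b was lower (log2 fold change -1.84, SE 0.25, adjusted p = 0.000134), a DEG, and Il1a was at -0.998 (SE 0.15, adjusted p = 0.00036), just inside the fold limit and so not called; without replicate 1 or 2 of RNY1-/- EVFx or 1 or 3 of RNY1-/- ProteinFx it was at -1.02 to -1.09 and called. Il18bp was at 0.98, and not called, without RNY1-/- EVFx replicate 3. Il18 (-0.56, adjusted p = 0.0412) and Casp1 (-0.44, adjusted p = 0.0133) also passed as lower, the Il18 call being lost, at -0.43 to -0.61, without replicate 1, 2 or 4 of RNY1-/- EVFx or 2 or 4 of RNY1-/- ProteinFx. Casp4 (-0.26), Nlrp3 (-0.16) and Gsdmd (-0.07) did not pass. Of all 10427 genes, 15.1% passed as higher, 14.1% as lower and 9.02% were DEGs, and the medians were -0.26 for the 9 genes and 0.02 for all. The Il18bp values of replicates 1 and 2, 103 and 108 CPM, and of replicates 3 and 4, 63.7 and 67.4 CPM, were all above the highest RNY1-/- EVFx library at 44.8 CPM. With only replicates 1 and 2 of RNY1-/- ProteinFx, 4 genes were DEGs, Il1a (-1.04) included, Casp4 passed at -0.58 (adjusted p = 0.000996) and Il18 did not pass (-0.41, adjusted p = 0.0758). With only replicates 3 and 4, Il1rn (1.15) and Il1b (-2.20) were the 2 DEGs and Il18bp passed at 0.76. Among all genes tested, 579 were higher and 550 lower DEGs of 10386 with the first pair. The second pair gave 462 and 505 of 10295. Groups did not overlap between fractions for 3 of the 9 genes with RNY1+/+ fluid and 4 with RNY1-/- fluid, beside 55% and 33% of all genes tested.

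The balance of each cytokine with its inhibitor was read as a ratio of counts within a library, which does not depend on library scaling; ratios are compared between groups only and were not tested. Il1b per Il1rn count was 0.0119 ± 0.0103 in PBS, 0.393 ± 0.0904 after RNY1+/+ EVFx and 0.292 ± 0.126 after RNY1-/- EVFx. It was 0.0691 ± 0.0344 after RNY1+/+ ProteinFx and 0.0315 ± 0.00958 after RNY1-/- ProteinFx (SD, n = 4). Every EVFx library, from 0.154 upward, was above every ProteinFx library, of which the highest was 0.118. The Il1a to Il1rn ratio had the same step, from 0.153 ± 0.0311 in PBS to 0.754 ± 0.189 and 0.893 ± 0.321 after EVFx and 0.250 ± 0.102 and 0.187 ± 0.0352 after ProteinFx, RNY1+/+ first. Within EVFx the genotypes overlapped in both ratios. Within ProteinFx they overlapped for Il1a to Il1rn. For Il1b to Il1rn they did not, at 0.0180 to 0.0404 with RNY1-/- and 0.0444 to 0.118 with RNY1+/+ fluid. RNY1-/- ProteinFx overlapped PBS, which reached 0.0251, in the Il1b ratio, and both ProteinFx groups overlapped PBS in the Il1a ratio.

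For IL-18 the ratio was below that of PBS after ProteinFx and overlapped it after EVFx. Il18 per Il18bp count was 0.954 ± 0.162 in PBS, 0.815 ± 0.141 and 1.03 ± 0.0861 after RNY1+/+ and RNY1-/- EVFx, and 0.50 ± 0.13 and 0.327 ± 0.0710 after RNY1+/+ and RNY1-/- ProteinFx. Both ProteinFx groups lay below PBS and below both EVFx groups in every library. Casp4 per Casp1 count went from 0.150 ± 0.0139 in PBS to 0.359 ± 0.00978, 0.336 ± 0.0142, 0.379 ± 0.0346 and 0.381 ± 0.0419 after RNY1+/+ EVFx, RNY1-/- EVFx, RNY1+/+ ProteinFx and RNY1-/- ProteinFx, with overlap among them and none with PBS.

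**Figure D4:**
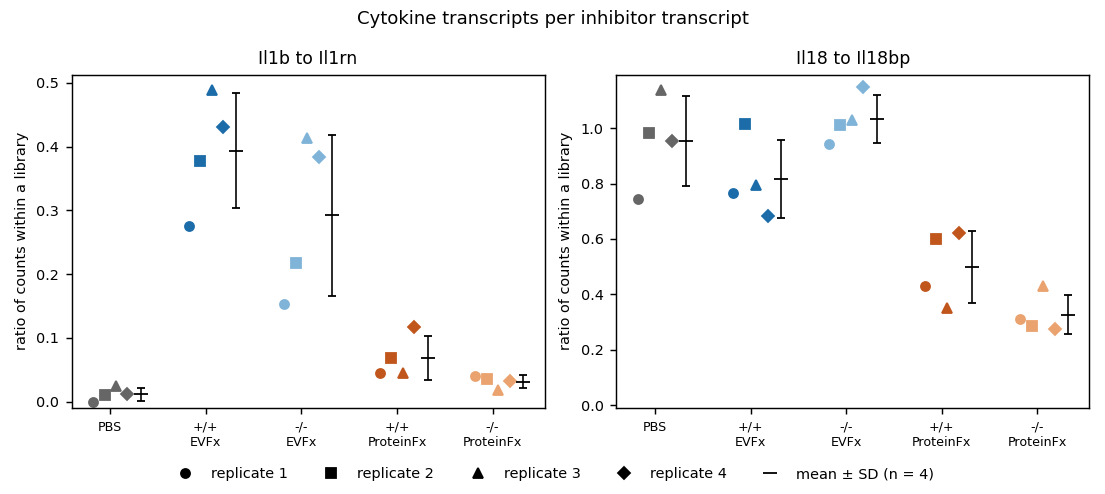
Ratio of counts within a library (vertical axes, linear) of Il1b to Il1rn on the left and Il18 to Il18bp on the right, by group along the horizontal axis; markers show replicate numbers and bars the mean ± SD (n = 4). EVFx libraries hold 0.154 to 0.489 Il1b per Il1rn count, above the 0.0180 to 0.118 of the ProteinFx libraries, and the Il18 to Il18bp ratio is 0.620 or less in every ProteinFx library.

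Likeness of the genes over the 20 libraries was described with Pearson's r of TMM-scaled log2 CPM; the points are 5 groups of 4 that share treatment, so r mostly compares group means. Casp1 and Casp4 had the highest r of any pair, 0.98, followed by Il1a and Il1b at 0.96; either caspase with either agonist was at 0.87 to 0.90, and Il18bp and Nlrp3 the lowest at 0.46. Among 7552 other genes with a mean of 10 CPM or more, those most like Il1b were Fpr1 (0.979), a formyl peptide receptor, Acod1 (0.963), the enzyme that makes itaconate, and Sod2 (0.963), the mitochondrial superoxide dismutase. Those most like Casp4 were Gbp3 (0.993), Herc6 (0.992) and Ifit2 (0.991), all known as interferon-inducible genes. For Il1rn they were Slc7a8 (0.985), an amino acid transporter, Cemip2 (0.968) and Rgl1 (0.964), and for Il18bp Ly6a (0.962), Clec4a3 (0.955) and Oas2 (0.955).

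The rest of the pathway was followed with a list of 55 genes, 9 of which (Gsdma, Gsdmc, Il18r1, Il1f10, Il33, Il36b, Il36rn, Nlrp12 and Nlrp6) were at or under 3 counts in every library. Against PBS, RNY1+/+ EVFx gave 10 higher and 4 lower of 32 tested, RNY1-/- EVFx 13 and 7 of 33, RNY1+/+ ProteinFx 15 and 6 of 34, and RNY1-/- ProteinFx 15 and 3 of 35. Over all genes tested, 21.7% passed as higher and 22.8% as lower in the first, 27.6% and 30.7% in the second, 25.9% and 29.3% in the third and 16.8% and 18.9% in the last. The counts of listed genes include some that met the filter of 3 CPM only through the group where they were high. These include Gbp5 among the higher genes in all 4 and Il1rl2 among the higher genes after both ProteinFx. Il1rap after RNY1+/+ EVFx is such a gene among the lower ones. The counts were not repeated without these genes. The largest rises belonged to the guanylate-binding proteins, which open vacuoles and bacterial membranes to cytosolic sensing. Gbp2 went from 20.6 ± 3.77 CPM in PBS to 681 ± 115, 572 ± 147, 763 ± 79.2 and 485 ± 93.1 CPM after RNY1+/+ EVFx, RNY1-/- EVFx, RNY1+/+ ProteinFx and RNY1-/- ProteinFx, log2 fold changes of 5.22, 5.03, 5.37 and 4.61 (adjusted p of at most 7.51e-08). Gbp5 rose by 5.26, 4.96, 4.94 and 3.82 in the same order (adjusted p of at most 6.4e-05). It was under the filter of 3 CPM in PBS and entered each of these tests through the treated group, so it had to differ.

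On the receptor side the fractions differed. Il1r1 itself was too low to test, with means of 0.414, 0.411, 0.562, 2.32 and 1.60 CPM in PBS, RNY1+/+ EVFx, RNY1-/- EVFx, RNY1+/+ ProteinFx and RNY1-/- ProteinFx. Its partner Il1rap fell, by log2 fold changes of -1.07 (adjusted p = 0.00725) and -0.72 (adjusted p = 0.0284), after RNY1+/+ and RNY1-/- EVFx, and rose by 1.28 (adjusted p = 0.000375) and 1.04 (adjusted p = 0.0152) after RNY1+/+ and RNY1-/- ProteinFx. After RNY1+/+ EVFx Il1rap was itself under the filter of 3 CPM and was tested there through the PBS libraries. Il1rl2, the IL-36 receptor, was at 2.12 ± 0.761 CPM in PBS, 2.73 ± 0.270 and 1.95 ± 0.558 CPM after EVFx and 23.2 ± 4.31 and 20.5 ± 1.47 CPM after ProteinFx, RNY1+/+ first. Because it was under 3 CPM in PBS and after EVFx, Il1rl2 met the filter through the ProteinFx libraries alone and was not tested for EVFx against PBS. Its log2 fold change against PBS was 3.60 (adjusted p = 4.32e-07) and 3.31 (adjusted p = 2.88e-06) with ProteinFx, a description of a gene that had to differ, and no ProteinFx library overlapped any other. Myd88, the shared adaptor, passed against PBS after RNY1+/+ ProteinFx, at 0.60 (adjusted p = 0.0121), and did not pass at 0.36, -0.05 and 0.29 after RNY1+/+ EVFx, RNY1-/- EVFx and RNY1-/- ProteinFx. Irak3, an inhibitor of the pathway, rose by 2.42 (adjusted p = 9.29e-08) and 1.95 (adjusted p = 3.15e-07) after RNY1+/+ and RNY1-/- EVFx, and by 1.89 (adjusted p = 3.47e-06) and 0.55 (adjusted p = 0.0237) after RNY1+/+ and RNY1-/- ProteinFx.

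Inflammasome partners went in both directions. Pycard fell, at -0.73 (adjusted p = 0.00274) and -1.11 (adjusted p = 0.000121) on the log2 scale, after RNY1+/+ and RNY1-/- EVFx, from 164 ± 34.6 to 87.7 ± 8.40 and 64.7 ± 6.78 CPM, and differed by -0.30 and -0.12 after ProteinFx, where it did not pass. The ATP-gated channel P2rx7, whose opening is a classical NLRP3 trigger, fell after the EVFx pair, at -1.12 (adjusted p = 0.000384) and -1.33 (adjusted p = 0.000134), and did not pass after the ProteinFx pair, at -0.43 (adjusted p = 0.0515) and -0.16 (adjusted p = 0.578). Panx1, a channel that releases ATP, was at 19.2 ± 4.76 CPM in PBS, 64.2 ± 8.14 and 37.0 ± 5.46 CPM after EVFx and 4.28 ± 1.47 and 3.84 ± 2.20 CPM after ProteinFx, RNY1+/+ first. Against PBS it rose with EVFx, by 1.90 (adjusted p = 7.43e-06) and 1.17 (adjusted p = 0.000275), and fell with ProteinFx, at -2.05 (adjusted p = 8.8e-05) and -2.15 (adjusted p = 0.000852). Aim2, the sensor of cytosolic DNA, had means of 23.4 to 25.8 CPM in the 5 groups and passed in none of the 9 comparisons.

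**Figure D5:**
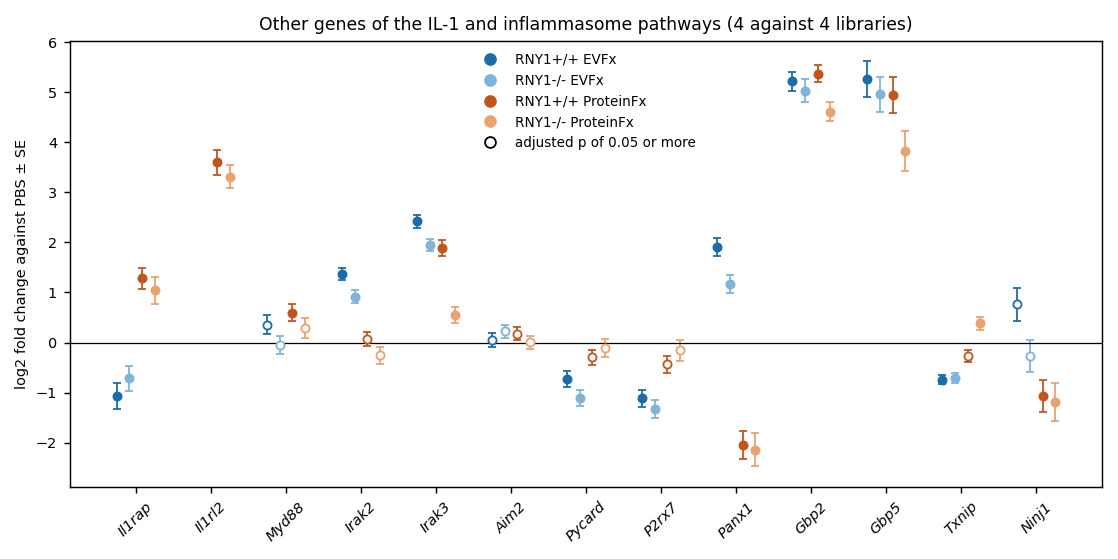
Log2 fold change against PBS (vertical axis, ± SE, 4 against 4 libraries) of other genes of the pathway along the horizontal axis, one point per treatment where the gene was tested; open points had an adjusted p of 0.05 or more. Gbp2 and Gbp5 lie between 3.82 and 5.37 in all 4, while Il1rap is below 0 with EVFx and above 0 with ProteinFx. Gbp5 and Il1rl2 met the filter of 3 CPM through the treated groups, and Il1rap after RNY1+/+ EVFx met it through PBS.

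Between genotypes, 4 listed genes were higher and 8 lower of 31 tested in EVFx, beside 25.5% and 26.6% of all genes tested, and 2 higher and 3 lower of 36 in ProteinFx, beside 2.19% and 3.36%. Ninj1, which ruptures the plasma membrane after gasdermin pores form, fell by 1.02 (adjusted p = 0.000221) with RNY1-/- EVFx, from 182 ± 40.2 to 85.1 ± 11.8 CPM. Pycard and Myd88 were also lower there, at -0.37 (adjusted p = 0.00363) and -0.41 (adjusted p = 0.00972). The values of the listed pathway genes, here and in the other comparisons, keep the GC and length trends, whose part in them was not tested. In ProteinFx, Irak3 was at -1.31 (adjusted p = 0.000559), from 65.7 ± 12.5 to 27.9 ± 5.45 CPM, and Gbp5 at -1.08 (adjusted p = 0.00739), from 44.4 ± 10.5 to 21.8 ± 6.25 CPM. Of the 33 tested for the interaction, 3 were more positive and 7 more negative in ProteinFx, beside 16.9% and 16.1% of all genes tested, with Pycard at 0.57 (adjusted p = 0.0131).

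Between fractions, ProteinFx gave 15 higher and 10 lower of 35 listed genes with RNY1+/+ fluid and 10 higher and 9 lower of 33 with RNY1-/- fluid. Over all genes tested 31% were higher and 32.2% lower with RNY1+/+ fluid and 15.1% and 14.1% with RNY1-/- fluid. Il1rl2, tested through its ProteinFx libraries, was higher by 3.09 and 3.27, Il1rap by 2.35 and 1.76, and Panx1 was at -3.96 and -3.27, RNY1+/+ first (adjusted p of at most 0.000189). With RNY1+/+ fluid Il1rap was also tested through its ProteinFx libraries. Il1rl2 and Il1rap are both among the higher genes counted. Irak2, a kinase downstream of Myd88, was at -1.29 (adjusted p = 2.93e-08) and -1.15 (adjusted p = 3.17e-05). Several other genes passed with fluid of both genotypes. Ninj1 was at -1.82 (adjusted p = 3.43e-08) with RNY1+/+ and -0.89 (adjusted p = 0.00491) with RNY1-/- fluid, and Irak3 at -0.53 (adjusted p = 0.00168) and -1.38 (adjusted p = 4.27e-06). P2rx7 was higher by 0.69 (adjusted p = 0.000132) and 1.19 (adjusted p = 0.000219), Txnip, an NLRP3 partner, by 0.48 (adjusted p = 0.00033) and 1.1 (adjusted p = 3.48e-05), and Pycard by 0.44 (adjusted p = 0.000716) and 1.00 (adjusted p = 7.53e-05), in the same order.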

How the data were processed

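Polyadenylated RNA of 20 BMDM libraries (1 labelled batch) was sequenced from the 3′ end with unique molecular identifiers (UMIs). Per the labels and methods, the authors' service provider trimmed reads with fastp 0.24.0, aligned them to GRCm39 with STAR 2.7.11, removed UMI duplicates and counted by strand with featureCounts (Subread 2.1.1), splitting multi-mapping reads; the annotation release was not given in the sources used here. The deposited values are estimated counts, of which 23.6 to 26.3% of detected genes per library are fractional, and the deposited CPM, each count over its library total.

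Here counts were rounded and tested with edgeR 4.0.16 (quasi-likelihood, TMM, R 4.3.3) on the libraries compared, after filterByExpr and removal of genes averaging under 3 CPM, with Benjamini-Hochberg adjustment over all genes tested; 8 pairs of groups and the interaction of genotype and fraction were fitted. The interaction used 16 libraries. The SE was taken as the log2 fold change's size divided by √F. Levels are deposited CPM. On simulated data the fit recovered 194 of 195 changed genes for RNY1+/+ EVFx against PBS, with 9 false calls among 10677 genes. For the ProteinFx genotype comparison it recovered 191 of 193, with 10 false calls among 10347. All 194 and 191 recovered genes were also past the fold limit. The changes put into the simulated data were all larger than that limit. No GC trend and no library that stood apart was put in, so the simulation does not cover those features of the data. Recovery of differences under that limit, which the report also gives, was not tested. Alternatives were DESeq2 1.42.0, total-count scaling, other filters, no fold limit, all 20 libraries in 1 fit, a replicate block, GC and length trends removed (longest transcript, splines with 4 degrees of freedom), counts thinned to 2510993 per library, and leaving out each library; pairs of RNY1-/- ProteinFx libraries were added after seeing the data. Intervals of pooled ratios and the floor of 3 counts cover counting error only.

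Replicate numbers are shared by the groups, but no source says what a number marks. Deviations of same-numbered libraries correlated above 0.1 in every pair for RNY1-/- EVFx against PBS (0.14 to 0.38) and for ProteinFx against EVFx with RNY1-/- fluid (0.24 to 0.41), which counts as pairing from the data alone, and not in the other comparisons. The p-values given for both are those of the fit without pairing. With a replicate block in the edgeR fit the same genes passed in both. Il18 between the RNY1-/- fractions then had an adjusted p of 0.00636.

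The genes, the 55-gene pathway list and the marker lists were chosen with earlier results of these data known. The text names all 10 genes and the 3 genes most correlated with each of Il1b, Il1rn, Casp4 and Il18bp. Of the pathway list it names Pycard, Il1r1, Il1rap, Myd88 and Aim2 whatever their values, though not in every comparison. In each comparison it also names up to 3 of the list's largest rises and 3 of its largest falls. These were taken among DEGs averaging 10 CPM or more whose groups do not overlap. An item of the pathway list that this rule names is not reported here.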

Additional observations from a re-analysis of the deposited data

Results flagged for a closer look

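Dixon's test at 95% was run on the 45 group-by-gene sets of 4 libraries, and 5 had a library far from the rest; chance flags about 1 in 20. The highest library of RNY1+/+ ProteinFx, replicate 4, stood apart for Il1a (285 CPM) and Il1b (87.1 CPM), where the next highest were 106 and 28.9 CPM. In the same library Il1rn was 1.62 times and Nlrp3 1.54 times the mean of the other 3, whereas Casp1 (0.994 times), Casp4 (1.04 times) and Gsdmd (1.12 times) were level with them. The lowest PBS library stood apart for Nlrp3 (12.1 CPM), the lowest RNY1+/+ EVFx library for Casp4 (122 CPM) and the highest for Gsdmd (58.6 CPM).

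The difference between fluids of the donor genotypes was not the same in the fractions by the interaction term of edgeR's quasi-likelihood fit for 5 genes: Il1a (-1.57), Il1b (-1.54), Il1rn (-0.85), Casp1 (-0.67) and Casp4 (-0.57), on the log2 scale and more negative in ProteinFx. All 4 RNY1-/- libraries were below all 4 RNY1+/+ libraries in both fractions for Il1a, Il1b and Il1rn, where 44.7% of all genes tested in EVFx and 14.2% in ProteinFx did not overlap, whereas for Casp1 the RNY1-/- libraries were the higher ones in EVFx. With replicates 3 and 4 only standing for RNY1-/- ProteinFx, Casp1 passed and Il1a (adjusted p = 0.0989), Il1rn (0.0986), Il1b (0.184) and Casp4 (0.289) did not. In that fit 121 of all 10406 genes tested passed as more positive and 226 as more negative. The values without RNY1+/+ ProteinFx replicate 4 and with GC trends removed stand beside these terms in the report.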

How the results depend on the processing

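Of the 58 differences that passed, leaving out 1 library kept direction and call in 471 fits and lost the call in 30. The other settings kept both in 528, lost the call in 30 and reversed 3. Those settings include the main fit without a fold limit, which could only keep all 58. They also include the pairs of RNY1-/- ProteinFx libraries added after seeing the data. Cases in which a gene fell under the filter and was not tested are not counted. The reversals all came with GC and length trends removed: Casp4 between EVFx genotypes (-0.092), and Casp1 (-0.061) and Casp4 (-0.098) between the RNY1+/+ fractions. DEG counts were unchanged under the replicate block (7, 6, 7 and 7 against PBS in the order RNY1+/+ EVFx, RNY1-/- EVFx, RNY1+/+ ProteinFx and RNY1-/- ProteinFx, 1 and 3 between genotypes in EVFx and ProteinFx, 1 and 3 between fractions with RNY1+/+ and RNY1-/- fluid, 2 for the interaction). Against PBS after RNY1-/- ProteinFx, 9 genes in place of 7 passed under the block; same-numbered deviations correlated at 0.02 to 0.63 there, which does not meet the rule for pairing, and elsewhere outside the paired comparisons at -0.36 to 0.41. Leaving out 1 library gave 6 to 8, 5 to 8, 7 to 8 and 6 to 7 against PBS, 1 and 3 between genotypes, 1 to 2 and 2 to 4 between fractions, and 0 to 2 for the interaction. Without a fold limit, 6 genes were called between EVFx genotypes, 4 and 6 between fractions, and 5 for the interaction. The interaction gave 1 with total counts, all 20 libraries, trends removed, thinned counts or replicates 1 and 2 of RNY1-/- ProteinFx, and 0 with its replicates 3 and 4; the cause was not tested. On TMM-scaled CPM 45 of 50 group means moved by less than 1 SD. Depth limits Il1r2, Il1r1, the 9 listed pathway genes at or under the floor in every library, and Il1b in PBS, with 10 counts in all.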
